A study of Mus musculus with 6 samples.

Results

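The luminal and basal keratins were described in tumor initiating cells (TICs) and in the remaining cancer cells of mouse mammary tumors. They were chosen by gene symbol and comprise 9 of the 41388 genes counted. Krt7, Krt8, Krt18 and Krt19 are the simple keratins of luminal epithelium, and Krt5, Krt6a, Krt14, Krt15 and Krt17 are keratins of basal or stressed epithelium. RNA-seq counts came from 3 samples of TICs, sorted as CD24+CD90+ cells, and from 3 samples of the other tumor cells, here non-CD24+CD90+ cells. Cells of both groups were taken from mammary tumors of 12-week-old female mice of the strain FVB/N-TgN(MMTVPyVT)634Mul/J, and no treatment was given. In these mice the polyomavirus middle T oncogene (PyMT) is driven by the mouse mammary tumor virus (MMTV) promoter, so all cells of both groups derive from animals carrying the transgene. Per the study's methods, both gates excluded CD45+ and DAPI+ cells, every sample was a pool from 4 sorts, and the comparison group lacked CD24, CD90 or both, while the series' design text names it as negative for both. Replicate numbers follow the order of deposition within a group and pair no samples. The study's supplement describes 4 sorts per sample and a total of 12 mice. It does not say whether pools of both groups came from the same mice, so shared animals are possible.

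Keratins are the intermediate filament proteins of epithelia, and a filament forms only from a type I keratin paired with a type II keratin. Luminal cells of the mammary gland build filaments mainly from the type II keratin Krt8 with the type I keratin Krt18, and Krt7 (type II) and Krt19 (type I) accompany them. Basal cells use the type II keratin Krt5 with the type I keratin Krt14, Krt15 (type I) is a basal keratin associated with epithelial progenitors, and Krt6a (type II) and Krt17 (type I) appear in wounded or stressed epithelium.

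Of the 9 keratins, 8 were expressed, and none passed edgeR's exactTest between the groups, which 1.55% of all tested genes did. DESeq2, run as an alternative, called Krt18 as the only one of the 9, where it called 2.58% of all genes. The luminal keratins had lower mean levels in TICs, but the values of Krt7 and Krt19 overlapped between the groups. Without TIC replicate 3, the log2 fold change (TICs over non-CD24+CD90+ cells) was 0.18 for Krt7 and -0.08 for Krt19. Krt18, by far the most abundant keratin, stood at 61.9% of its level in non-CD24+CD90+ cells, and its values did not overlap between the groups. Krt8, its partner, also lay lower in every TIC sample, as did 7.55% of all tested genes. The values of each basal keratin overlapped between the groups, and Krt6a had no count in any of the 6 samples.

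Values below are CPM, counts scaled by library size, after TMM normalization in edgeR, and log2 fold changes are TICs over non-CD24+CD90+ cells. A gene was called where edgeR's exactTest gave an adjusted p-value under 0.1, with Benjamini-Hochberg adjustment over all 12192 genes that passed the filter of more than 1 CPM in at least 3 samples. In this comparison 189 genes (1.55%) were called, 166 higher and 23 (0.189% of those tested) lower in TICs. Counted reads per library numbered 6781239 to 8450038 in non-CD24+CD90+ cells and 8114933 to 9100552 in TICs, and 3 counts, the upper limit that a count of 0 allows, corresponded to 0.33 to 0.44 CPM, for counting error only. The sorting markers themselves were not called. The log2 fold change of Thy1, the CD90 gene, was 1.25 ± 0.50 (SE, adjusted p = 0.350), and that of Cd24a, the CD24 gene, was -0.34 ± 0.30 (SE, adjusted p = 0.985).

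The genes lie in both keratin clusters of the mouse genome (GRCm38, coordinates from GENCODE M21). On chromosome 15 are the type II genes Krt7 (chr15:101411043-101430313, plus strand), Krt6a (chr15:101689910-101694307, minus strand), Krt5 (chr15:101707070-101712898, minus strand) and Krt8 (chr15:101996698-102004482, minus strand). Krt18 is the type I gene that lies among them, next to Krt8 (chr15:102028180-102032027, plus strand). The other type I genes are on the minus strand of chromosome 11, namely Krt15 (chr11:100131758-100135928), Krt19 (chr11:100140810-100148665), Krt14 (chr11:100203162-100207548) and Krt17 (chr11:100256217-100261029).

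Keratins resemble each other in sequence, and the authors counted only reads that mapped to a single place, so stretches shared with other genes bear on what each count could hold. The coding bases that end the central rod of the keratins were a place where type I and type II members could be lined up over 50 bases. The stretch is shown for 6 of the members 5′ to 3′ on the coding strand from the annotated transcripts, and capitals mark the bases that differ from Krt14.

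Krt14: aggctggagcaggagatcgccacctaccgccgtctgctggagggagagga

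Krt17: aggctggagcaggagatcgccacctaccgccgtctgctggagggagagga

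Krt15: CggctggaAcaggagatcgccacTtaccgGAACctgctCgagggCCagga

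Krt19: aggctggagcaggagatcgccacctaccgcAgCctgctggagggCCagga

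Krt18: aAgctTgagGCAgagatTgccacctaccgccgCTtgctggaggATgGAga

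Krt7: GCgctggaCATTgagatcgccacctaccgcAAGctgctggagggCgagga

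In this stretch Krt17 matched Krt14 at all 50 bases, Krt19 at 46, Krt15 and Krt7 at 40, and Krt18 at 38. The identity of Krt14 and Krt17 extended over 71 bases in a row, and their whole coding sequences were 74.97% identical.

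Over the whole transcript, the share of 50-base words that also occur in an annotated transcript of another gene was 62.0% for Krt6a, 29.7% for Krt8, 14.4% for Krt14, 12.2% for Krt5 and 4.0% for Krt17. It was 0.72% for Krt18, 0.67% for Krt15, 0.22% for Krt7 and 0 for Krt19. Krt8 shared its words mainly with the processed pseudogene Krt8-ps, Krt14 with Krt16, Krt5 with Krt6a, and Krt6a with Krt6b, whose coding sequence was 97.6% identical to it. Krt6b and Krt16, like Krt6a, had 0 counts in all 6 samples, and Krt8-ps was not analysed here. The counts of Krt8, Krt14, Krt5 and Krt6a are therefore uncertain to the extent that reads in shared stretches were dropped. Exons of other genes on the opposite strand covered 24.8% of the exon bases of Krt6a, 5.87% of Krt5, 5.16% of Krt8 and 1.09% of Krt7. Whether the counting used strand is not given in the sources used here, so reads of these overlaps could not be assigned with certainty.

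Krt18 (ENSMUSG00000023043), the type I keratin of simple epithelia, was measured at 2814, 2662 and 2493 CPM in non-CD24+CD90+ cells and at 1821, 1552 and 1563 CPM in TICs. All 3 TIC samples lay below all 3 samples of the other group, and samples of the same group lay close together. The group means were 2657 ± 161 and 1645 ± 153 CPM (SD, n = 3 each), the log2 fold change was -0.69 ± 0.26 (SE), and its 95% interval ran from -1.21 to -0.18. The unadjusted p-value in exactTest was 0.0091 and the adjusted p-value 0.295, so Krt18 was not called. The exact two-sided permutation test of log2 CPM gave p = 0.10, the smallest value that 3 against 3 samples allow.

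Krt8 (ENSMUSG00000049382), the type II partner of Krt18, was measured at 466, 378 and 390 CPM in non-CD24+CD90+ cells and at 341, 261 and 250 CPM in TICs. Again every TIC sample lay below every sample of the other group, although the highest TIC sample came close to the lowest of them. The log2 fold change was -0.53 ± 0.29 (SE, 95% interval -1.10 to 0.03) and the adjusted p-value in exactTest 0.690.

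Krt7 (ENSMUSG00000023039), a type II keratin of glandular ducts, was measured at 195, 173 and 232 CPM in non-CD24+CD90+ cells and at 171, 275 and 47.1 CPM in TICs. The TIC samples held both the highest and the lowest value of all 6 samples, and the spread within TICs reached 5.84-fold. Its log2 fold change was -0.28 ± 0.47 (SE, adjusted p = 1, exactTest), and without TIC replicate 3 it became 0.18.

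Krt19 (ENSMUSG00000020911), the smallest type I keratin, was measured at 164, 248 and 243 CPM in non-CD24+CD90+ cells and at 213, 194 and 105 CPM in TICs. The groups overlapped, and TIC replicate 3 was the lowest sample, as it was for Krt7. With these values the log2 fold change was -0.35 ± 0.34 (SE, adjusted p = 0.999, exactTest).

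**Figure D1:**
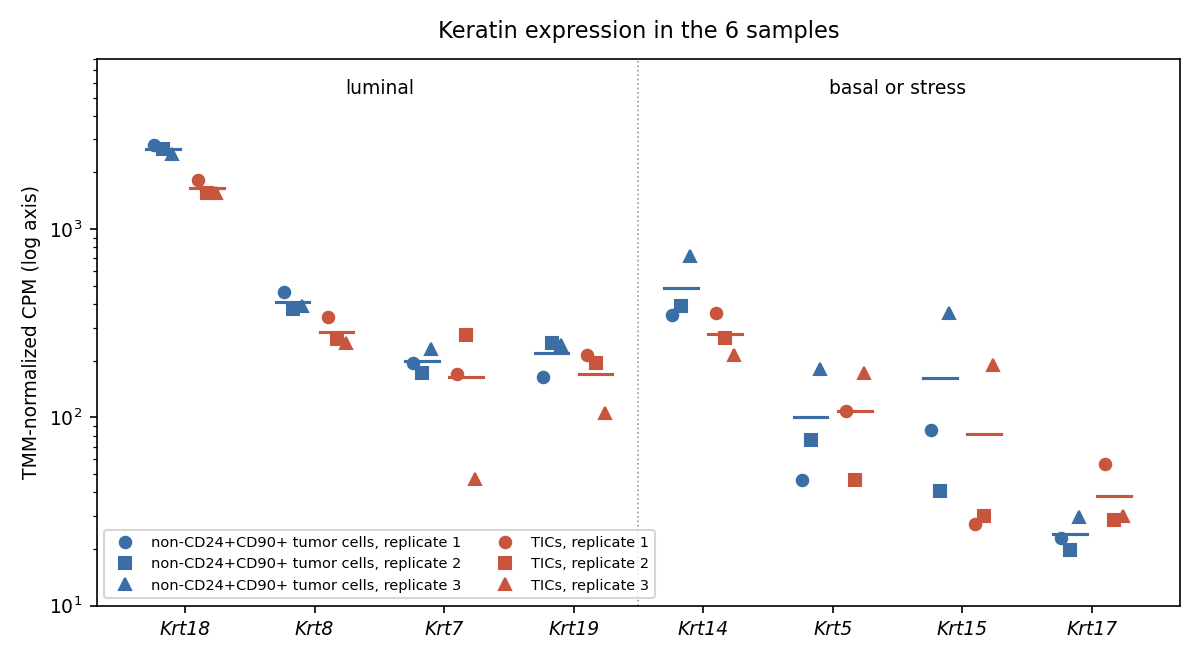
TMM-normalized CPM on a log axis of the 8 keratins with counts, one point per sample, with blue for non-CD24+CD90+ cells, red for TICs, a marker shape for each replicate and a bar for the group mean (n = 3). The groups are apart for Krt18 (2493 to 2814 against 1552 to 1821 CPM) and Krt8 (378 to 466 against 250 to 341 CPM) and overlap for the other 6, and Krt15 spans 27.1 to 357 CPM.

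Krt14 (ENSMUSG00000045545), the type I keratin of basal cells, was measured at 349, 392 and 723 CPM in non-CD24+CD90+ cells and at 357, 264 and 215 CPM in TICs. The groups overlapped because TIC replicate 1 lay just above the lowest sample of the other group, while non-CD24+CD90+ replicate 3 stood far above the rest. The log2 fold change was -0.81 ± 0.34 (SE, 95% interval -1.48 to -0.13). Its unadjusted p-value was 0.0203 and its adjusted p-value 0.423 in exactTest, and the exact permutation test gave p = 0.20. Without non-CD24+CD90+ replicate 3 the log2 fold change was -0.41.

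Krt5 (ENSMUSG00000061527), the type II partner of Krt14, was measured at 46.4, 75.9 and 180 CPM in non-CD24+CD90+ cells and at 108, 46.5 and 171 CPM in TICs. Both groups covered nearly the same range, each with 1 sample well above its others. Between the groups its log2 fold change was 0.11 ± 0.51 (SE, 95% interval -0.90 to 1.12, adjusted p = 1, exactTest), and its sign changed with the sample left out.

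Krt15 (ENSMUSG00000054146), a type I keratin of basal cells, was measured at 85.4, 40.6 and 357 CPM in non-CD24+CD90+ cells and at 27.1, 30.1 and 189 CPM in TICs. A single sample stood far above the others in each group, the same library as for Krt5, and the highest and lowest of the 6 samples differed 13.2-fold, the widest range of the 8 expressed keratins. The log2 fold change was -0.97 ± 0.74 (SE, adjusted p = 0.957, exactTest). Without TIC replicate 3 it was -2.48 and was called (adjusted p = 0.074, exactTest, where 1.08% of genes were called), and without non-CD24+CD90+ replicate 3 it was 0.38 and was not.

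Krt17 (ENSMUSG00000035557), the type I stress keratin, was measured at 22.9, 19.7 and 29.6 CPM in non-CD24+CD90+ cells and at 56.5, 28.6 and 29.8 CPM in TICs. It was the lowest of the expressed keratins, and only TIC replicate 1 stood clear of the other samples. The log2 fold change was 0.67 ± 0.58 (SE, adjusted p = 0.985, exactTest). Krt6a (ENSMUSG00000058354), the type II stress keratin that pairs with Krt16 and Krt17, had 0 counts in every sample, was not tested, and was not detectable at this depth.

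Of the 9 keratins, 8 passed the filter on low values, and 0 were called in exactTest, where 1.55% of all tested genes were. At an unadjusted p-value below 0.05, 2 passed, Krt18 and Krt14, both lower in TICs, against 7.85% of all tested genes in either direction and 3.11% in that direction. The quasi-likelihood test of edgeR called 0 as well (0.41% of all genes) with 3 at an unadjusted p-value below 0.05 (7.92% of all genes). DESeq2 called 1, Krt18, with a log2 fold change of -0.66 and an adjusted p-value of 0.0018, where it called 2.58% of all genes, and 0.633% as lower in TICs. The groups did not overlap, with TICs lower, for 2 of the 8 keratins, Krt18 and Krt8, and for 7.55% of all tested genes.

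Among the 8 tested keratins 6 had a negative and 2 a positive log2 fold change, with a median of -0.44, beside 50.3% negative and a median of -0.01 over all tested genes. All 4 luminal keratins were negative, though Krt7 turned positive without TIC replicate 3, and 2 of the 4 tested basal keratins were negative. In a bulk sample, fewer cells of a type and less RNA per cell cannot be told apart.

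**Figure D2:**
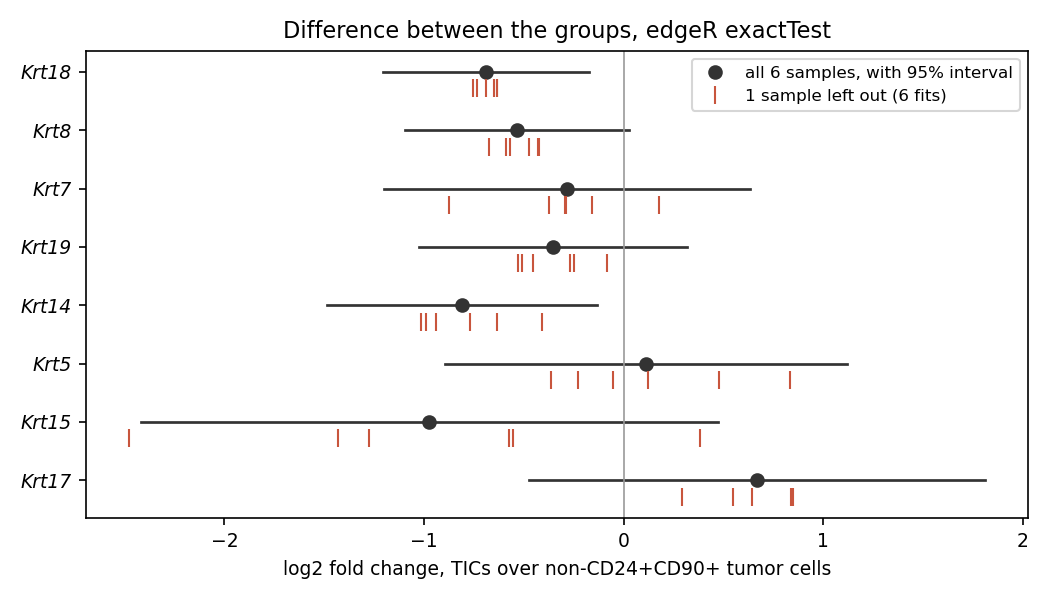
Log2 fold change of TICs over non-CD24+CD90+ cells for the 8 tested keratins, with the value from all 6 samples and its 95% interval in black and the 6 values with 1 sample left out as red ticks. The intervals of Krt18 (-1.21 to -0.18) and Krt14 (-1.48 to -0.13) exclude 0 before adjustment, while the ticks of Krt7, Krt5 and Krt15 fall on both sides of 0.

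Levels of different keratins were compared per kilobase of exon, since longer transcripts collect more reads. Krt18 reached 1849 ± 112 CPM per kb in non-CD24+CD90+ cells and 1145 ± 106 CPM per kb in TICs (SD, n = 3 each). Krt14 followed with 278 ± 116 and 159 ± 41.1 CPM per kb, and Krt8 with 210 ± 24.2 and 145 ± 25.5 CPM per kb. The mean level of Krt18 over the 6 samples was 6.86 times that of Krt14, and Krt18 was above it in 6 of 6 samples.

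Krt14 and Krt8 did not differ beyond their spread, with Krt14 the higher in 4 of 6 samples. Krt8 was above Krt19 in 6 of 6 samples, and Krt19 had 118 ± 25.5 and 92.2 ± 31.2 CPM per kb. Below Krt19 the order was Krt15, Krt5, Krt7 and Krt17, and no neighbouring pair from Krt19 down was in the same order in all 6 samples. Krt15 was above Krt5 in 3 of 6, and Krt5 above Krt7, and Krt7 above Krt17, in 4 of 6. The place of Krt7 depended on the length used, because its annotated exons add up to 7049 bases and its coding sequence to 1371, and per coding kilobase it stood above Krt15 with 146 ± 21.7 and 120 ± 83.2 CPM per kb.

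The 4 luminal keratins together amounted to 3639, 3462 and 3358 CPM in non-CD24+CD90+ cells and to 2547, 2282 and 1965 CPM in TICs. The samples of each group lay close together and the groups were apart. Krt18 made up 74.2% to 77.3% of this sum in non-CD24+CD90+ cells and 68.0% to 79.5% in TICs, so the sum mostly follows Krt18. The basal keratins together amounted to 504, 528 and 1290 CPM in non-CD24+CD90+ cells and to 549, 369 and 605 CPM in TICs, and these sums overlapped, with a single high sample in non-CD24+CD90+ cells.

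The basal share of all keratin CPM was 12.2%, 13.2% and 27.7% in non-CD24+CD90+ cells and 17.7%, 13.9% and 23.5% in TICs. The means, 17.7% ± 8.7 and 18.4% ± 4.8 (SD, n = 3 each), differed by less than the spread between samples. All 9 keratins together made up 0.426% ± 0.034 of the normalized library in non-CD24+CD90+ cells and 0.277% ± 0.028 in TICs, without overlap.

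**Figure D3:**
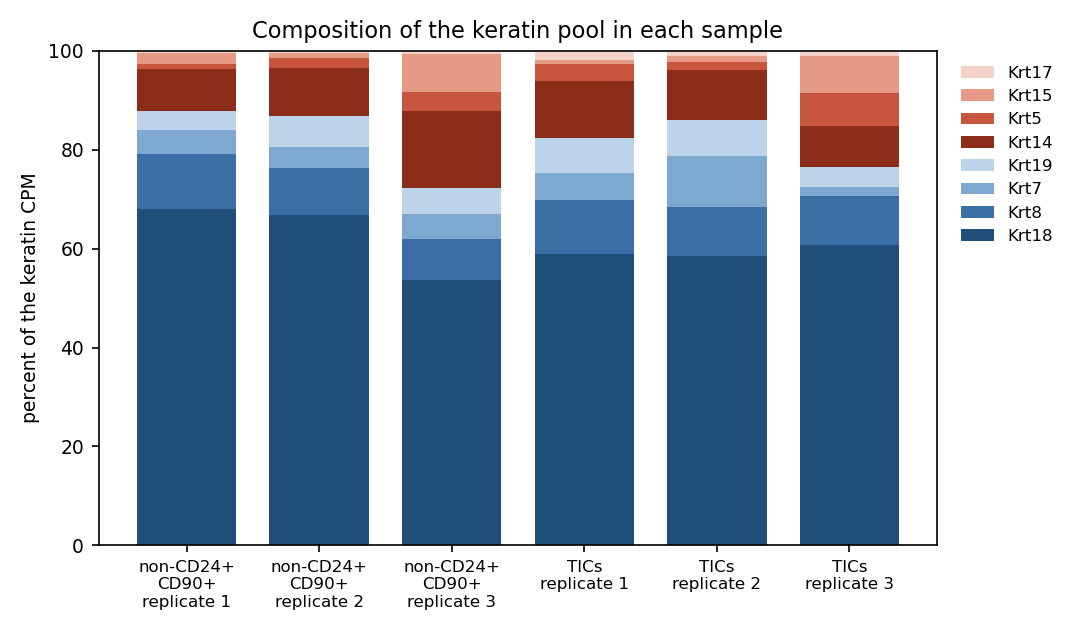
Percent of the summed keratin CPM taken by each of the 8 keratins with counts in each of the 6 samples, luminal keratins in blue and basal or stress keratins in red. Krt18 takes 53.6% to 67.9% of the pool in non-CD24+CD90+ cells and 58.5% to 60.8% in TICs, and the red part is largest in replicate 3 of each group (27.7% and 23.5%).

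The mix of basal keratins differed from sample to sample. Krt14 held 69.3%, 74.2% and 56.1% of the basal CPM in non-CD24+CD90+ cells and 65.0%, 71.5% and 35.5% in TICs. Krt15 held 16.95%, 7.69% and 27.7% in non-CD24+CD90+ cells and 4.94%, 8.15% and 31.2% in TICs. In each group the library highest in Krt15 was also the one with the smallest share of Krt14. Both are shares of the same sum, so a high Krt15 lowers the share of Krt14. In non-CD24+CD90+ cells the level of Krt14 itself was highest in that library (723 CPM).

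Krt17, picked after the values were seen, was the basal keratin whose share was apart between the groups. The shares of Krt14, Krt15 and Krt5 overlapped, as did the level of Krt17 in CPM. The share of Krt17 was 4.55%, 3.74% and 2.30% in non-CD24+CD90+ cells and 10.3%, 7.74% and 4.93% in TICs. Every TIC sample lay above every sample of the other group, by the narrowest margin in TIC replicate 3, and the share moves with the levels of Krt14 and Krt15 as well as with that of Krt17.

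For the obligate pairs, the ratio of both partners was taken per kilobase. Krt18 stood over Krt8 by 8.24, 9.59 and 8.70 times in non-CD24+CD90+ cells and by 7.28, 8.11 and 8.53 times in TICs, so the type I partner was in excess in all 6 samples and the groups overlapped. With only the stretches of each transcript that hold words found in no other gene counted as length, a choice made after seeing the data, the excess was between 5.15 and 6.79 times. Krt14 stood over Krt5 by 9.40, 6.46 and 5.03 times in non-CD24+CD90+ cells and by 4.12, 7.09 and 1.57 times in TICs. TIC replicate 3 had the smallest excess of Krt14, and the groups overlapped.

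All type I members together stood over all type II members by 8.06, 8.90 and 7.96 times in non-CD24+CD90+ cells and by 6.61, 7.09 and 6.56 times in TICs. This ratio was lower in every TIC sample, and it remained apart per coding kilobase (5.48 to 6.13 against 3.98 to 5.38 times). Most of the type I sum is Krt18, with group means of 1849 and 1145 CPM per kb. Krt14, the next type I member, had 278 and 159. The ratio thus depends strongly on Krt18, while the ratios of both pairs above overlapped.

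The other keratin genes were 45. Of these, 31 were at 0 counts throughout, and 11 had some counts but did not pass the filter. The 9 keratins described here held 98.3% of all keratin counts. Of the 3 others that were tested, none was called. Krt10, a type I keratin of differentiating epidermis, had 0, 20 and 55 counts in non-CD24+CD90+ cells and 110, 134 and 144 counts in TICs. Its counts were higher in every TIC sample, with a log2 fold change of 2.20 ± 1.38 (SE, adjusted p = 0.904, exactTest). Krt79, a type II keratin of hair follicle ducts, had 350, 140 and 301 counts against 353, 162 and 390 counts in TICs, a log2 fold change of -0.01 ± 0.60 (SE). Krt23, a type I keratin, had 88, 70 and 108 counts against 37, 0 and 101 counts in TICs, a log2 fold change of -1.06 ± 1.45 (SE). For both, the groups overlapped.

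The genes around the keratins were taken as 2 lists. Linkers of keratin filaments and filament regulators (desmosomal and hemidesmosomal proteins, plakins and trichoplein) had 14 tested members, of which 0 were called in exactTest (1.55% of all genes were), with 4 positive and 10 negative log2 fold changes and a median of -0.29. The values ran from -1.07 ± 1.27 (SE) for Evpl, which encodes envoplakin, to 1.47 ± 1.48 (SE) for Tchp, which encodes the keratin-binding protein trichoplein. The groups did not overlap for 2 of the 14 linkers, 1 lower and 1 higher in TICs, beside 7.55% and 7.69% of all tested genes, so nothing is read from this count. Both are named after their values were seen. Itgb4, the integrin beta chain of hemidesmosomes, to which keratins are anchored by plectin, was at 97.6 to 107 CPM in non-CD24+CD90+ cells and 34.8 to 80.7 CPM in TICs, with a log2 fold change of -0.80 ± 0.39 (SE, adjusted p = 0.602, exactTest). Dst, which encodes dystonin, was at 145 to 158 CPM in non-CD24+CD90+ cells and 177 to 229 CPM in TICs, with a log2 fold change of 0.38 ± 0.29 (SE, adjusted p = 0.953, exactTest).

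Transcription factors that act on keratin or mammary lineage genes had 18 tested members of 20, of which 0 were called in exactTest, with 5 positive and 13 negative log2 fold changes and a median of -0.14. Grhl3 had 0 counts in every sample. Klf4, a factor of epithelial differentiation, had the highest value, 1.16 ± 0.39 (SE, adjusted p = 0.149), and Ovol2, a repressor of mesenchymal genes in epithelia, the lowest, -1.92 ± 1.34 (SE, adjusted p = 0.949). Klf4 was at 138 to 210 CPM in non-CD24+CD90+ cells and at 175, 416 and 566 CPM in TICs, so the groups overlapped through TIC replicate 1 alone. Ovol2 had 362, 95 and 136 counts in non-CD24+CD90+ cells and 1, 1 and 164 counts in TICs. The groups did not overlap for 3 of the 18 tested factors, named after their values were seen, with lower values in TICs for all 3, beside 7.55% of all tested genes. Foxa1, a factor of luminal cells that did not pass the filter, had 40, 5 and 16 counts in non-CD24+CD90+ cells and 0 counts in each TIC sample. Tfap2c, which encodes an AP-2 factor of luminal cells, was at 326 to 378 against 124 to 257 CPM in TICs, Ehf, an Ets factor of epithelia, at 221 to 263 against 174 to 183 CPM, and Snai2, a factor of basal cells, at 29.8 to 61.9 against 15.8 to 24.4 CPM. Their adjusted p-values in exactTest were 0.251, 0.897 and 0.542.

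Markers of cell types were set beside the keratins. The 15 luminal markers other than keratins summed to 5222 to 5468 CPM in non-CD24+CD90+ cells and 4192 to 4349 CPM in TICs, so this sum too lay lower in every TIC sample. Of 14 tested, 12 had negative log2 fold changes, the median was -0.24, and 1 was called, Prom1, which encodes prominin 1, a membrane protein of luminal cells. It was at 91.1 to 136 CPM in non-CD24+CD90+ cells and at 21.9 to 42.8 CPM in TICs, and fell by 1.77 on the log2 scale (SE 0.40, adjusted p = 0.0062, exactTest). The highest log2 fold change was that of Wfdc2, 1.29 ± 1.73 (SE), with at most 109 counts in a sample. In exactTest 0.189% of all tested genes were called lower in TICs, and 1.55% in either direction. The groups did not overlap, with TICs lower, for 4 of the 14, beside 7.55% of all tested genes. Named after their values were seen, these were Prom1, Epcam, Cdh1 and Esrp1.

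Relative to these 15 markers, a choice made after seeing the data, Krt18 was 0.515, 0.510 and 0.464 times their sum in non-CD24+CD90+ cells and 0.419, 0.364 and 0.373 times in TICs. It was also apart relative to Epcam, the epithelial adhesion molecule, at 1.61 to 2.01 against 1.32 to 1.45 times, but not relative to Cdh1, which encodes E-cadherin, at 3.25 to 3.76 against 3.05 to 3.88 times. Krt8, Krt14, Krt7 and Krt19 relative to each of these overlapped between the groups. Relative to Epcam and to the summed markers, Krt18 was thus lower in every TIC sample, and relative to Cdh1 it was not. Both single markers were themselves lower in every TIC sample. Cdh1 was at 663 to 862 against 454 to 512 CPM, with a log2 fold change of -0.71 ± 0.27 (SE). Epcam was at 1397 to 1547 against 1115 to 1254 CPM, with a log2 fold change of -0.34 ± 0.26 (SE). The ratios therefore depend on the marker chosen.

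The 15 basal or myoepithelial markers other than keratins summed to overlapping values, 12732 to 15156 CPM against 13356 to 14398 CPM in TICs, with most of the sum in Igfbp5 and Sparc. Of 14 tested, 0 were called in exactTest, 6 were positive and 8 negative, and the median was -0.03. The groups did not overlap for 3 with lower and 2 with higher values in TICs, beside 7.55% and 7.69% of all tested genes. Named after their values were seen, Itga6, Itgb4 and Lamb3 were lower, and Sparc and Tagln higher, in every TIC sample. The overlapping sum thus holds markers that lay apart in either direction. The extremes were Tagln, which encodes transgelin, with 1.38 ± 0.97 (SE), and Itgb4, given above.

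Markers of stromal cells lay higher in TICs. The 10 fibroblast markers summed to 2848 to 3256 CPM in non-CD24+CD90+ cells and 7556 to 10896 CPM in TICs. Of these, 9 were tested, all with positive log2 fold changes, among them Thy1, whose protein CD90 was used to sort the TICs, and 5 rose (adjusted p below 0.1 in exactTest), namely Col1a1 by 1.54, Col1a2 by 2.01, Col3a1 by 1.66, Dcn by 1.48 and Dpt by 1.54 on the log2 scale. The lowest value was that of Pdgfra, 0.65 ± 0.41 (SE). Of all 12192 tested genes, 1.55% were called in exactTest, with 166 genes higher in TICs. The groups did not overlap, with TICs higher, for 7 of the 9 tested fibroblast markers, beside 7.69% of all tested genes. The same held for 3 of the 7 pericyte and 1 of the 8 endothelial markers. The 7 pericyte markers summed to 445 to 521 CPM against 868 to 1494 CPM in TICs, and Rgs5 rose by 1.45, with the other values between 0.81 ± 0.79 (SE) for Notch3 and 2.05 ± 0.86 (SE) for Abcc9. The 8 endothelial markers summed to 127 to 151 CPM against 176 to 603 CPM in TICs, and 0 were called in exactTest, with all 8 log2 fold changes positive, from 0.83 ± 1.32 (SE) for Erg to 2.36 ± 0.89 (SE) for Cldn5.

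Of the leukocyte markers, Cd3e and Adgre1 had 0 counts in every sample, Ptprc, which encodes the sort's CD45, had 33 counts in 1 sample of non-CD24+CD90+ cells and 0 in the others, and Lyz2 rose by 2.68 (adjusted p = 0.012, exactTest), while the lowest log2 fold change was -1.68 ± 2.26 (SE) for Csf1r. Of 6 adipocyte markers, Adipoq, Plin1 and Lep had 0 counts in every sample, Fabp4 rose by 2.75 (adjusted p = 0.00047, exactTest), and Lipe had a log2 fold change of -2.42 ± 2.02 (SE). The summed fibroblast, pericyte and endothelial markers were higher, and the summed luminal keratins lower, in every TIC sample, and the part of these cell types in the keratin values was not tested.

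Skin keratinocytes, which could enter a mammary dissection and express basal keratins, had 9 markers, of which Krt2, Lor and Ivl had 0 counts in every sample and Flg was not analysed here. The others summed to 37.0 to 51.8 CPM against 44.0 to 106 CPM in TICs. Of these, 2 were tested, Krt10, given above, and Sbsn, with a log2 fold change of 0.26 ± 0.53 (SE), and 0 were called in exactTest. Those that did not pass the filter are named after their values were seen. Krtdap had 0, 8 and 0 counts in non-CD24+CD90+ cells and 188, 0 and 100 counts in TICs. Krt1 had 19 counts in TIC replicate 1 alone, and Krt77 had 38 in non-CD24+CD90+ replicate 1 alone. The part of skin cells in the basal keratin values was not tested.

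**Figure D4:**
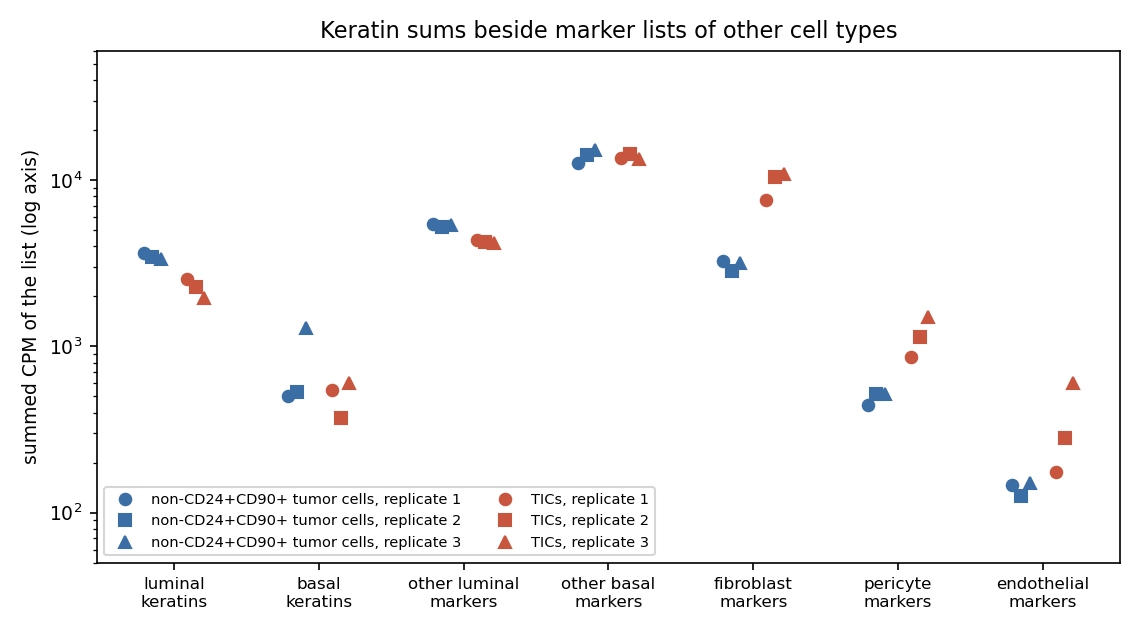
Summed CPM on a log axis of the luminal and basal keratins and of marker lists of other cell types, one point per sample, with blue for non-CD24+CD90+ cells, red for TICs and a marker shape for each replicate. The sums of luminal keratins and of other luminal markers are lower in all 3 TIC samples, those of fibroblast (2848 to 3256 against 7556 to 10896 CPM), pericyte and endothelial markers are higher, and both basal sums overlap.

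Genes whose log2 CPM followed those of a keratin most closely over the 6 samples are given as a description, since all values share the same 6 libraries and 12192 genes were searched. The nearest to Krt8 were Cyp46a1 (Pearson's r = 0.997), Hist1h4i (r = 0.996) and Hist1h1c (r = 0.995), and Krt18, its partner, followed at rank 70 with r = 0.944. The nearest to Krt14 were Cenpn (r = 0.993), Atp5d (r = 0.988) and Pgls (r = 0.987), and the highest keratin was Krt19 with r = 0.745, at rank 839. Krt5, the partner of Krt14, had r = 0.288 with it. Cyp46a1 and Cenpn were near the floor in TIC replicate 3 (0.53 and 0.13 CPM), so their r values rest partly on very few counts.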

How the data were processed

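RNA-seq libraries were made from 120 ng of total RNA per sample of sorted cells. Per the labels and the study's methods, the authors trimmed the reads with Trimmomatic (version 0.32), aligned them to GRCm38 with STAR (version 2.4.0), kept uniquely mapped reads with SAMtools (version 1.1), counted them per gene with HTSeq and deposited the raw counts per Ensembl gene. Read length, strand setting and annotation release are not given in the sources used here.

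Gene symbols, lengths and transcripts came from GENCODE M21. Symbols were found for 40340 of 41388 genes, and 0.133% of the counts fell on the rest. The filter required 1 CPM to be exceeded by a minimum of 3 samples and left 12192 genes, TMM factors and tagwise dispersions were computed in edgeR (version 4.0.16, R version 4.3.3), and the groups were compared with exactTest, which the study's methods name, at an adjusted p-value below 0.1. SEs and intervals came from the negative binomial fit. Alternatives were edgeR's quasi-likelihood test, DESeq2 (version 1.42.0), other scalings, filters and dispersions, and leaving out each sample. Single values were also compared with exact permutation tests (SciPy version 1.17.1). The 6 pairs of samples within groups differed by far more than sampling noise (chi-square per degree of freedom at least 46.0), so none was a duplicate. The scripts were tested on simulated data with a dispersion below the common dispersion of these data (0.678), so the power reached here was not measured.

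Named were all 9 members, each other keratin that passed the filter, the called genes and the highest and lowest log2 fold change of each list, the markers at 0, and the 3 genes nearest to Krt8 and to Krt14. Other names are given as chosen after their values were seen. The members and lists were chosen with earlier results of these data known. A marker and some sequences are not reported here.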

Additional observations from a re-analysis of the deposited data

How the results depend on the processing

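No paired analysis was possible because the labels number the samples 1 to 6 and the groups share no number (replicates 1 to 3 are names given in order of deposition). The count of called genes was 189 in exactTest, 50 in the quasi-likelihood test, 306 in DESeq2 (75.5% of them higher in TICs, against 87.8% in exactTest), and 112 with no CPM filter. Leaving out 1 sample gave 72 (without non-CD24+CD90+ replicate 3) to 323 (without TIC replicate 1), with 87, 90 and 102 without non-CD24+CD90+ replicate 1, non-CD24+CD90+ replicate 2 and TIC replicate 2. Of the keratins, 0 were called in exactTest, 1 in DESeq2 (Krt18), and 0 to 1 with a sample left out (Krt15, without TIC replicate 3). Over all 13 alternatives the log2 fold change kept its direction for Krt18 (-0.76 to -0.64), Krt8 (-0.67 to -0.43), Krt14 (-1.01 to -0.41), Krt19 (-0.53 to -0.08) and Krt17 (0.29 to 0.85). With 1 sample left out it turned for Krt5 (range -0.36 to 0.83, with -0.23 and -0.06 without non-CD24+CD90+ replicates 1 and 2 and -0.36 without TIC replicate 3), for Krt15 (-2.48 to 0.38) and for Krt7 (-0.87 to 0.18). The cause was not tested. Per coding length in place of all exons, 5 of the 8 keratins kept their rank. With 3 samples a group, the exact permutation test cannot go below 0.10.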

Other observations

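Cnn1, which encodes the smooth muscle protein calponin 1 of myoepithelial cells and was chosen after its values were seen, had 63, 0 and 336 counts in non-CD24+CD90+ cells and 60, 5 and 365 counts in TICs. In each group it was highest in 1 library, numbered 3 by order of deposition only, the same library in which Krt15 was highest (357 and 189 CPM) and Krt5 was highest (180 and 171 CPM). Krt14 was highest in replicate 3 of non-CD24+CD90+ cells (723 CPM) but lowest in replicate 3 of TICs (215 CPM). Other basal or myoepithelial markers, named after their values were seen, were mixed. Oxtr, Col17a1 and Myh11 were also highest in replicate 3 of both groups, while Itgb4 (97.6 and 34.8 CPM) and Lamb3 (118 and 91.2 CPM) were lowest there. In TICs, Trp63 was highest in replicate 1 and Acta2 in replicate 2. The content of myoepithelial cells was not tested.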
